A study of Homo sapiens with 10 samples.

Results

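NCI-H2087 and NCI-H441, cultured human lung adenocarcinoma lines, were compared with each other under a control siRNA, before p53 was lowered. The comparison took the 2 control libraries of each line, 4 of the 10 RNA libraries of the study, and every gene with enough counts to test. NCI-H2087 carries p53 with the V157F substitution and NCI-H441 carries R158L, and each mutation is represented by 1 line, so line and mutation cannot be told apart. All the cells of the comparison had received a control siRNA, per the sample fields, and their titles read control. The titles of the p53 siRNA samples speak of knockout, although their fields name an siRNA. The p53 siRNA libraries of both lines (2 each) and the single control library of NCI-H2110, another lung line with p53 R158P, stand beside them as further readings. No label says whether the replicates were separate cultures, so every p-value measures only the spread between these libraries.

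Lung adenocarcinoma lines arise from cells of the distal airways and alveoli and keep parts of that programme to different degrees. Some lines hold tight epithelial junctions, mucins and surfactant genes, while others express vimentin, matrix-modifying enzymes and the transcription factor ZEB1 that represses E-cadherin. Lines also differ in gene dosage along whole chromosome stretches, in the HOX genes that mark body position, and in detoxification enzymes under the factor NRF2. Both p53 substitutions lie in the DNA-binding domain.

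Depth was 18336672 and 25178500 counts for the NCI-H2087 controls, and 23073288 and 25810934 for those of NCI-H441. Across the genes tested, log2 levels of the NCI-H2087 replicates correlated at 0.987 (Pearson) and those of NCI-H441 at 0.988, against r from 0.868 to 0.877 between libraries of different lines. Of the markers of other cell types, the leukocyte gene PTPRC had 1 and 1 counts in NCI-H2087, against 5 and 5 in NCI-H441, and the fibroblast genes PDGFRA and THY1 had 0 in all 4 libraries. Other members of those lists were read: the collagen gene COL1A1 was at 13.6 and 16.3 CPM (counts scaled to library size) in NCI-H2087 and 28.4 and 19.4 CPM in NCI-H441, and CD68, a lysosomal protein abundant in macrophages, was at 113.2 and 133.7 CPM against 49.2 and 61.4 CPM. LUM, of the fibroblast list, is described with the matrix genes. The airway factor NKX2-1 was at 320.6 and 337.5 CPM in NCI-H2087 and 211.7 and 150.2 CPM in NCI-H441.

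Of 17978 genes tested, 7568 (42.1%) differed between the lines at a Benjamini-Hochberg adjusted p below 0.05 in edgeR's quasi-likelihood test, and these are the genes called here. In NCI-H2087, 3952 genes (22% of those tested) were higher and 3616 (20.1%) were lower. At 2-fold or more, 2823 (15.7%) were higher and 2407 (13.4%) were lower. Without NCI-H2087 replicate 2, 4693 genes were called, and a test against a 2-fold difference called 3043. Of the largest differences, 813 called genes were higher by 32-fold or more and 320 were lower by as much. Protein-coding genes were called in 45.4% of cases, long intergenic noncoding genes in 31.9% and antisense genes in 27.1%.

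**Figure D1:**
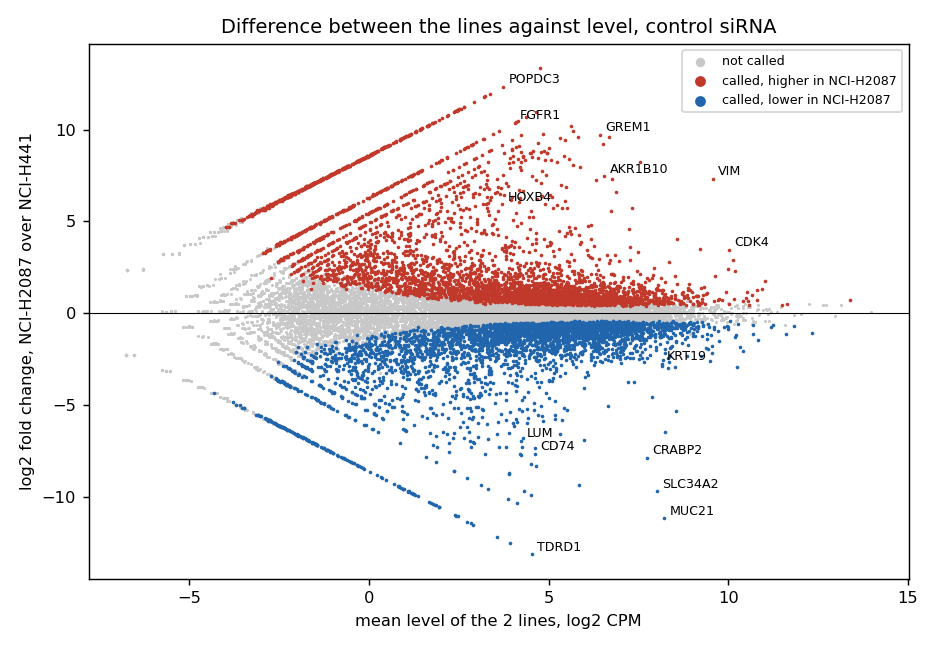
Log2 fold change of NCI-H2087 over NCI-H441 (vertical axis) against the mean level of both lines in log2 CPM (horizontal axis) for each gene tested, with the 3952 called higher in red and the 3616 called lower in blue. The straight lines of points at the left edges are genes with 0 or a few counts in 1 line, whose fitted fold change depends on a small constant added to the counts.

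Among genes of at least 20 CPM with a symbol, the largest rises in NCI-H2087 ran from POPDC3, a cAMP-binding membrane protein of muscle, to AFAP1L1, an actin-filament adaptor. POPDC3 was at 27.0 and 26.2 CPM in NCI-H2087, with 0 counts in NCI-H441, which is at least 447-fold higher against a floor of 3 counts over the 2 libraries. PUS7L, related to pseudouridine synthases, was at 21.97 and 19.07 CPM, with 0 counts in NCI-H441, at least 344-fold higher. Neither gene had a count in the p53 siRNA libraries of NCI-H441. GSDME, which encodes a pore-forming gasdermin, was at 44.3 and 55.8 CPM in NCI-H2087 and had 1 count in NCI-H441, a ratio of 2566 with a 95% counting interval from 460 to 101401. The neuropeptide gene GAL was at 33.7 and 36.6 CPM in NCI-H2087 against 1 count in NCI-H441, a ratio of 1781 (319 to 70401). COCH, which encodes the matrix protein cochlin, was at 97.8 and 107.7 CPM in NCI-H2087 and had 5 and 0 counts in NCI-H441. BEX3, a small X-linked adaptor of neurotrophin receptor signalling, was at 89.5 and 107.4 CPM against 0.172 and 0 CPM. The naming rule took only genes whose groups did not overlap, so the separation of these genes is no support. An entry with no symbol in the tables used, left out by the naming rule, was at 54.55 and 53.04 CPM in NCI-H2087 with 0 counts in NCI-H441, at least 903-fold higher. The few counts in NCI-H441 were mostly in replicate 1: of 52 genes read in NCI-H2087 and nearly absent from NCI-H441 under p53 siRNA, 50 were above 0 in control replicate 1 and 16 in control replicate 2, and the part of this in the lowest levels was not tested. The others named by size were SUSD5, MAGED4B, FGFR1, ACOXL, FGF13 and AFAP1L1. MAGED4B has a near-identical copy in MAGED4, so its counts may be split between them.

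The largest falls were led by genes with 0 counts in NCI-H2087. TDRD1, a Tudor protein of the germ-line small RNA pathway, had 0 counts in NCI-H2087, against 48.4 and 44.4 CPM in NCI-H441, at least 710-fold lower. AQP4, a water channel, had 0 counts in NCI-H2087, against 41.9 and 19.5 CPM in NCI-H441, at least 469-fold lower. TNFRSF6B, a soluble decoy receptor for Fas ligand, had 0 counts in NCI-H2087, against 24.8 and 22.3 CPM in NCI-H441, at least 361-fold lower. In the p53 siRNA libraries of NCI-H2087 it had 0 and 31 counts. TNFRSF6B overlaps read-through transcripts of its neighbour RTEL1, so reads of the 2 genes cannot be fully told apart. MUC21, a large transmembrane mucin, was at 0 and 0.452 CPM in NCI-H2087 against 695 and 499.1 CPM in NCI-H441 (−11.15 ± 0.59 log2). SLC34A2, the phosphate transporter of alveolar type 2 cells, was at 0.258 and 0.905 CPM against 649.9 and 375.6 CPM (−9.68 ± 0.53). AZGP1, a secreted zinc-binding glycoprotein, was at 0.0516 and 0.264 CPM against 126.7 and 103.7 CPM. The remaining genes named by size were B3GALNT1, SLCO4A1-AS1, CRIP1, NTNG1, TREM1 and EHF. All 24 genes named by size had adjusted p from 9.56e-07 to 0.000308.

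The promoters of the first 3 genes in each direction that RefSeq lists are shown because CpG content, the density of C followed by G, was read across the genes that differed most. Each runs 5′ to 3′ from 250 bases before to 50 after the start, in build GRCh38.p14, with each CG in capitals.
POPDC3: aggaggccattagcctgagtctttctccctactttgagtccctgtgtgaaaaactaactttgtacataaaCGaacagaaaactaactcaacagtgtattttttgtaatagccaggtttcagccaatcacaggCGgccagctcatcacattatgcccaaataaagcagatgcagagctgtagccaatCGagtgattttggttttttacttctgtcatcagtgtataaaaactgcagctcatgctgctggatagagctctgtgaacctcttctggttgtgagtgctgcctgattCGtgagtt
GSDME: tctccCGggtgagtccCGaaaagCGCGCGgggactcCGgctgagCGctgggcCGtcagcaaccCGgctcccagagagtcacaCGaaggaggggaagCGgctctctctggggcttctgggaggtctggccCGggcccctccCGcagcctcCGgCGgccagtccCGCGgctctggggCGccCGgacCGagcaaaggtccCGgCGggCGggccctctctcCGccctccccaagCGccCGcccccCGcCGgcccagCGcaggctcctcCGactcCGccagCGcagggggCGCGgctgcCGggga
SUSD5: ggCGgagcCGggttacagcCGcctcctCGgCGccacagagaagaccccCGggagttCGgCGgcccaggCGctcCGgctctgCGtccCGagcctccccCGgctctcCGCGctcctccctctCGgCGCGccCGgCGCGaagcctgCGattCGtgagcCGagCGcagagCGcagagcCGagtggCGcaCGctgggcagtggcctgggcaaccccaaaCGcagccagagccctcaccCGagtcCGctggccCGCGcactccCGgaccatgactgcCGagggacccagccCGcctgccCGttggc
TDRD1: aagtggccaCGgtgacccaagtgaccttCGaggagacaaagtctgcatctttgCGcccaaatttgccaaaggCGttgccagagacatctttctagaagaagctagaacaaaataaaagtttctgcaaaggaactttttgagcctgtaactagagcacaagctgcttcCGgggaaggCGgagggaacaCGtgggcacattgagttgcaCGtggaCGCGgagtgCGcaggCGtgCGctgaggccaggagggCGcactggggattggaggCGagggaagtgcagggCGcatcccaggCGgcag
AQP4: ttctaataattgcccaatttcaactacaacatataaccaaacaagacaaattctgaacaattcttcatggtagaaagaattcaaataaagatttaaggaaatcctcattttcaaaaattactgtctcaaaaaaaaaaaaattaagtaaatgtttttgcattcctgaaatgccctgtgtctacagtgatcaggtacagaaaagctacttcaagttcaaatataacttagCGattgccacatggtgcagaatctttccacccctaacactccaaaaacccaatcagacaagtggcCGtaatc
TNFRSF6B: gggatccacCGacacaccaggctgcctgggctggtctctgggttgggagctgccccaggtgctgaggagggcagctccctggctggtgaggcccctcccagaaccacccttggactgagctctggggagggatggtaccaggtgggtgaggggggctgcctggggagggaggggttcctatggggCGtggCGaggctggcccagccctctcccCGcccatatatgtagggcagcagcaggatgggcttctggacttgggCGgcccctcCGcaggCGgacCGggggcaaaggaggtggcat
The windows lie for POPDC3 at chr6:105176206-105176505 on the minus strand, for GSDME at chr7:24757415-24757714 on the minus strand, for SUSD5 at chr3:33218761-33219060 on the minus strand, for TDRD1 at chr10:114179037-114179336 on the plus strand, for AQP4 at chr18:26865754-26866053 on the minus strand and for TNFRSF6B at chr20:63696402-63696701 on the plus strand. The number of CG pairs was 4, 35 and 38 in the first set and 17, 2 and 8 in the second. Among the protein-coding genes tested, with 2 chromosomes left out, 11235 of 13543 (83%) had an entry, and 77.3% of these promoters were CpG-rich, meaning at least 50% G and C and at least 0.6 of the CG pairs that base content predicts. Of 216 such genes lower in NCI-H2087 by 32-fold or more, 174 (80.6%) had an entry and 60 (34.5%) were CpG-rich. Of 1885 lower by 2-fold or more, 1511 (80.2%) had an entry and 66.4% of those were CpG-rich. A set needed an entry for at least 80% of its genes, so the check is void for those higher by 32-fold or more (76.9% with an entry) and by 2-fold or more (79.2%).

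A stricter view took genes with at least 5 CPM in both control libraries of 1 line and 0 counts in both of the other. NCI-H2087 had 29 of them, up to 53.8 CPM, and NCI-H441 had 15, up to 46.4 CPM, with sex-linked genes of chromosome Y and the X-inactivation transcript left out. Of the 29, 22 also had 0 counts in both p53 siRNA libraries of NCI-H441, and of the 15, 13 had 0 counts in both p53 siRNA libraries of NCI-H2087. The NCI-H2087 genes included the calcium channel MCOLN3, the metallothionein MT1M, the amino acid transporter SLC38A4, the carbonic anhydrase CA12, the matrix phosphoprotein SPP1 and the protease inhibitor SERPINE2. The NCI-H441 genes included the sulfotransferase SULT6B1, the rhomboid protease RHBDL2, the fucosyltransferase FUT6 and the chemokine receptor CXCR3. In the NCI-H441 set 3 were processed pseudogenes of BNIP3 (BNIP3P2, BNIP3P6 and BNIP3P43), whose reads a counter may share with the parent gene. In NCI-H2110, 9 of the 29 and 11 of the 15 had 0 counts.

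HOX genes, homeobox factors in 4 chromosomal clusters that set position along the body axis, were nearly all higher in NCI-H2087. Of 39 listed, 26 had enough counts to test, 25 were higher in NCI-H2087 and 1 was lower, with a list median of 7.57 log2 against 0.02 over all genes tested. A HOX gene read in 1 line only passed the filter through that line, so the count describes these genes and is no support. HOXA genes summed to 66.5 and 68.4 CPM in NCI-H2087 and 0.300 and 0.0370 CPM in NCI-H441, with 11 of 11 tested higher. HOXB genes summed to 79.2 and 95.9 CPM against 3.35 and 2.18 CPM, with 9 of 9 higher. HOXC genes were low, at 4.54 and 6.67 CPM against 0 counts for the 4 tested. HOXB4, an anterior HOX gene, was at 21.1 and 30.6 CPM in NCI-H2087 and 0.472 and 0.370 CPM in NCI-H441 (5.93 ± 0.34 log2). HOXA3 was at 20.1 and 20.7 CPM against 2 counts, a ratio of 515 with a counting interval from 142 to 4260. HOXB7 had 0 counts in NCI-H441 and was at least 197-fold higher. HOXD1 went the other way, with 2 counts in NCI-H2087 against 458 in NCI-H441, a ratio of 209 (57.5 to 1730) in favour of NCI-H441. In NCI-H2110 the HOXA genes summed to 86.6 CPM and the HOXB genes to 0.315 CPM, so its HOXA sum was above those of both lines and its HOXB sum below them.

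**Figure D2:**
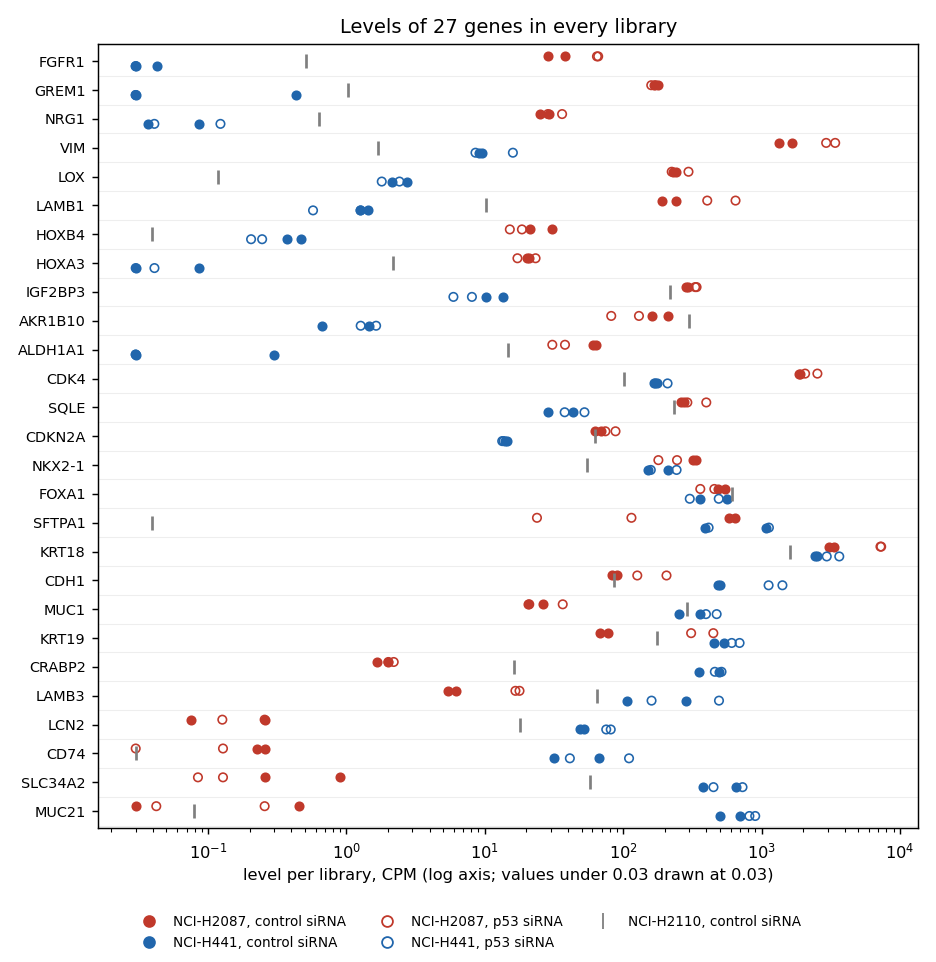
Levels of 27 genes in CPM on a log axis, 1 point per library, with NCI-H2087 in red above NCI-H441 in blue, control siRNA filled and p53 siRNA open, and the NCI-H2110 control library as a grey bar. The upper genes, from FGFR1 to CDKN2A, are higher in NCI-H2087, and the lower genes, from CDH1 to MUC21, are higher in NCI-H441. FOXA1, SFTPA1 and KRT18 were not called under control siRNA.

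Epithelial adhesion genes were lower in NCI-H2087, and several mesenchymal genes were higher. Of 25 epithelial adhesion genes, 16 fell and 0 rose (median −1.22 log2), a share called of 64% against 42.1% of all genes tested. CDH1, which encodes E-cadherin, was at 82.6 and 90.0 CPM in NCI-H2087 and 484.1 and 500.9 CPM in NCI-H441 (−2.51 ± 0.24 log2, SE, adjusted p = 3.58e-05). OVOL1, a repressor that guards epithelial identity, fell by 5.43 ± 0.40 log2, the protease inhibitor SPINT1 by 2.25 ± 0.19 and the claudin CLDN4 by 2.11 ± 0.18. The junction protein OCLN was at 188 and 187.5 CPM in NCI-H2087, against 186.2 and 193.5 CPM in NCI-H441, without being called. Neither line lacked E-cadherin. The groups did not overlap for any of the genes that fell in this account. Such separation was common: of 17978 genes tested, 6569 were separated in that direction and 6906 in the other.

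Of 19 mesenchymal genes tested, 10 rose, 2 fell and 7 were not called (median 2.13 log2). The share called was 63.2%, against 42.1% of all genes tested. VIM, the intermediate filament vimentin, was at 1332 and 1672 CPM in NCI-H2087 and 9.57 and 9.10 CPM in NCI-H441 (7.33 ± 0.33 log2, adjusted p = 8.59e-07). LOX, which cross-links collagen, was at 240.6 and 227.6 CPM against 2.75 and 2.15 CPM (6.58 ± 0.26), and the fibrillin gene FBN1 was higher by 6.41 ± 0.30. ZEB1, the repressor of CDH1, was at 31.6 and 37.0 CPM against 6.70 and 8.17 CPM (2.20 ± 0.22). The receptor kinase AXL, higher by 3.63 ± 0.27, and SPARC, a matrix glycoprotein, higher by 6.88 ± 0.52, belonged to the same list. TGFBI, a secreted adhesion protein, went the other way, at 303.5 and 263.4 CPM in NCI-H2087 and 2216 and 2026 CPM in NCI-H441 (−2.90 ± 0.29), as did the repressor SNAI1 (−3.47 ± 0.48). N-cadherin, encoded by CDH2, had 0 and 1 counts in NCI-H2087, against 0 in both NCI-H441 libraries, and fibronectin, FN1, was at 1258 and 1190 CPM against 847.3 and 807.8 CPM without being called (adjusted p = 0.0534). The mesenchymal list was thus split, with a filament, matrix enzymes and ZEB1 higher and 2 of its named secreted or nuclear members lower.

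Matrix and protease genes differed by family member. LAMB1, the laminin beta 1 chain, was at 190.5 and 242 CPM in NCI-H2087 and 1.25 and 1.44 CPM in NCI-H441 (7.32 ± 0.38 log2), while LAMB3, a beta chain of an epithelial laminin, was at 6.24 and 5.47 CPM against 106.1 and 282.5 CPM (−5.06 ± 0.61). The collagen VI chains COL6A1 (−4.72 ± 0.48) and COL6A2 (−4.03 ± 0.44) fell together. Of 19 basement membrane and matrix genes 7 rose and 6 fell (68.4% called, against 42.1% of all genes tested). Of 14 matrix protease genes 3 rose and 5 fell (57.1% called), with the collagenase MMP1 higher (5.16 ± 0.60) and the gelatinase MMP9 lower (−7.32 ± 1.00). Integrins were higher for 3 of 14 members and lower for 5 (57.1% called), and the laminin receptor chain ITGB4 was among those lower (−1.74 ± 0.17). LUM, a small matrix proteoglycan of fibroblasts, was at 0.155 and 0.415 CPM in NCI-H2087 and 39.8 and 34.7 CPM in NCI-H441 (−6.93 ± 0.44). Of the same list, COL1A1 was not called (−0.67 ± 0.25, adjusted p = 0.0517), and PDGFRA and THY1 had 0 counts.

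Keratins, mucins, airway secretory and surfactant genes were read next. Keratins were higher for 2 of 14 members and lower for 8 (71.4% called, against 42.1% of all genes tested). KRT19 was at 68.5 and 77.5 CPM in NCI-H2087 and 534.7 and 453.2 CPM in NCI-H441 (−2.76 ± 0.21 log2), and KRT7 was lower by 2.91 ± 0.26, whereas KRT18, the partner of keratin 8 in simple epithelia, was at 3348 and 3077 CPM against 2526 and 2439 CPM and was not called (adjusted p = 0.0775). Of 14 mucin and goblet genes 2 rose and 6 fell (57.1% called), with a list median of 0.01 log2. Besides MUC21, the transmembrane mucins MUC1 (26.2 and 20.5 CPM against 359.6 and 252.2 CPM) and MUC20 (1.03 and 1.06 CPM against 150.7 and 98.8 CPM) were lower. The airway secretory gene LCN2, a lipocalin, was lower, with 5 and 2 counts in NCI-H2087 against 51.76 and 49.15 CPM in NCI-H441. WFDC2, of the same list, was lower by 5.16 ± 0.32. Both lines expressed surfactant genes: SFTPA1 was at 583.7 and 640.9 CPM in NCI-H2087 and 1081 and 392.8 CPM in NCI-H441 (−0.27 ± 0.68, adjusted p = 0.786), with overlapping groups, and SFTPB was at 15.1 and 27.8 CPM against 25.7 and 21.2 CPM. SFTPA2, which is nearly identical in sequence to SFTPA1, was lower (−2.31 ± 0.66), a call lost without NCI-H441 replicate 1 (−1.51) and without either NCI-H2087 replicate (−2.26 and −2.37). Of 11 alveolar type 2 genes tested, 2 rose, 3 fell and 6 were not called, a share called of 45.5% against 42.1% of all genes tested.

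Transcription factors of the lung and foregut moved both ways, with 5 of 19 higher and 9 lower (73.7% called, against 42.1% of all genes tested). SOX2, a stem cell factor of proximal airways, was at 42.9 and 47.3 CPM in NCI-H2087 and 5.02 and 3.40 CPM in NCI-H441 (3.42 ± 0.38 log2), and the forkhead gene FOXP2 was higher by 5.71 ± 0.63. NKX2-1, the lineage factor of distal lung, was higher by 0.86 ± 0.25 (adjusted p = 0.02), a call lost without either NCI-H2087 replicate (0.89 and 0.82) and without NCI-H441 replicate 2 (0.66). The epithelial ETS factors were lower: EHF had 3 counts in NCI-H2087 against 1498 in NCI-H441, a ratio of 456 (156 to 2211) in favour of NCI-H441, and ELF3 was at 34.0 and 34.6 CPM against 296.2 and 157.4 CPM (−2.72 ± 0.28). GRHL2, which maintains epithelial junction genes, was lower by 0.91 ± 0.22, a call lost without NCI-H2087 replicate 2 (−0.81) and without NCI-H441 replicate 1 (−0.81). FOXA1 was at 483.8 and 548.5 CPM against 559.5 and 360.8 CPM and was not called.

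Receptor tyrosine kinases, which receive growth factor signals, were called in 21 of 25 cases, 10 higher and 11 lower. That is 84% called, against 42.1% of all genes tested. FGFR1, a fibroblast growth factor receptor, was at 28.5 and 38.3 CPM in NCI-H2087 and had 1 count in NCI-H441, a ratio of 1718 with a counting interval from 308 to 67889. EGFR was at 567.8 and 619.9 CPM against 251.6 and 271.3 CPM (1.18 ± 0.17 log2), and ERBB4 was higher by 4.99 ± 0.76. MET, the receptor of hepatocyte growth factor, was at 885.6 and 1077 CPM against 2872 and 2391 CPM (−1.42 ± 0.19), and EPHA2 (−2.66 ± 0.18), ERBB2 (−1.96 ± 0.21) and ERBB3 (−1.18 ± 0.25) were lower too. Among the ligands, NRG1, which binds ERBB3 and ERBB4, was at 28.9 and 25.3 CPM in NCI-H2087 against 3 counts in NCI-H441, a ratio of 449 (153 to 2182). The ligands of EGFR went both ways. TGFA (−1.84 ± 0.27) and EREG (−0.98 ± 0.16) were lower, while EGF was higher, at 9.39 and 19.3 CPM against 2.96 and 2.92 CPM (2.29 ± 0.33). Of 18 genes induced by ERK signalling 2 rose and 7 fell, a share of 50%, near that of all genes tested. FOSL1, an AP-1 subunit, was at 105.8 and 76.3 CPM against 538 and 584.4 CPM (−2.62 ± 0.22). GREM1, a secreted BMP antagonist, and DKK3, a Wnt pathway modulator, were higher in NCI-H2087, at 178.6 and 167.6 CPM against 0.429 and 0 CPM and at 56.4 and 72.5 CPM against 0.258 and 0 CPM.

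Of 15 oncogenes 8 were called (53.3%), and of 18 tumour suppressors 8 (44.4%), against 42.1% of all genes tested. CDK4, the G1 cyclin-dependent kinase, was at 1907 and 1864 CPM in NCI-H2087 and 168.1 and 174.5 CPM in NCI-H441 (3.46 ± 0.18 log2, adjusted p = 1.49e-06), with 101.1 CPM in NCI-H2110. Of the 16 tested genes nearest to it on chromosome 12, 11 were higher, 1 was lower and 4 were not called. OS9, a lectin of protein quality control, was at a mean of 1082 CPM in NCI-H2087 and 95.3 CPM in NCI-H441 (3.51 ± 0.19), TSFM, a mitochondrial elongation factor, was higher by 3.16 ± 0.19, METTL1, a tRNA methyltransferase, by 2.39 ± 0.21, and CTDSP2, a phosphatase, by 2.92 ± 0.18, at 1979 against 260.9 CPM. At places 7 and 8 in gene order, DCTN2 and MBD6 before CDK4 were not called, while CTDSP2 and ATP23 (2.38 ± 0.17) after it were higher. CDKN2A, whose products include the CDK4 inhibitor p16, was at 63.1 and 68.8 CPM against 14.38 and 13.98 CPM (2.22 ± 0.17). Counts per gene do not tell its products apart. The chromatin remodelling ATPases SMARCA2 (−2.10 ± 0.20) and SMARCA4 (−1.52 ± 0.16) and the signal transducer SMAD4 (−1.08 ± 0.15) were lower. RB1 was at 98.8 and 77.8 CPM against 77.9 and 87.4 CPM, with overlapping groups. MYC was at 523.5 and 622 CPM against 291.1 and 427.6 CPM and was not called.

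The difference between the lines ran in blocks along the chromosomes. In 468 windows of 25 neighbouring protein-coding genes, the median difference was 0.5 log2 or more in 65 and −0.5 or less in 56. The lowest window, on chromosome 17 from TNFAIP1 to PHF12, had a median of −1.93 log2, with 23 of 25 genes lower and 0 higher; RPL23A, a ribosomal protein gene there, was lower by 2.14 ± 0.15, TRAF4, a signalling adaptor, by 2.41 ± 0.18 and SPAG5, a spindle protein, by 2.14 ± 0.25. The highest were adjacent windows on chromosome 7, from ITGB8 to HNRNPA2B1 (median 1.43, 18 higher and 1 lower) and from CBX3 to MINDY4 (median 1.30, 20 higher and 2 lower), the second of which holds the HOXA cluster. Chromosomes 18, 21 and 22 had negative medians in all 6, 4 and 10 of their windows, and chromosome 10 had positive ones in 16 of 18. Over single chromosomes the median ran from −0.45 on chromosomes 18 and 22 to 0.40 on chromosome 10. In the p53 siRNA libraries, 121 of the 121 windows past 0.5 in either direction kept their sign. Gene dosage was not measured, and its part in these blocks was not tested.

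**Figure D3:**
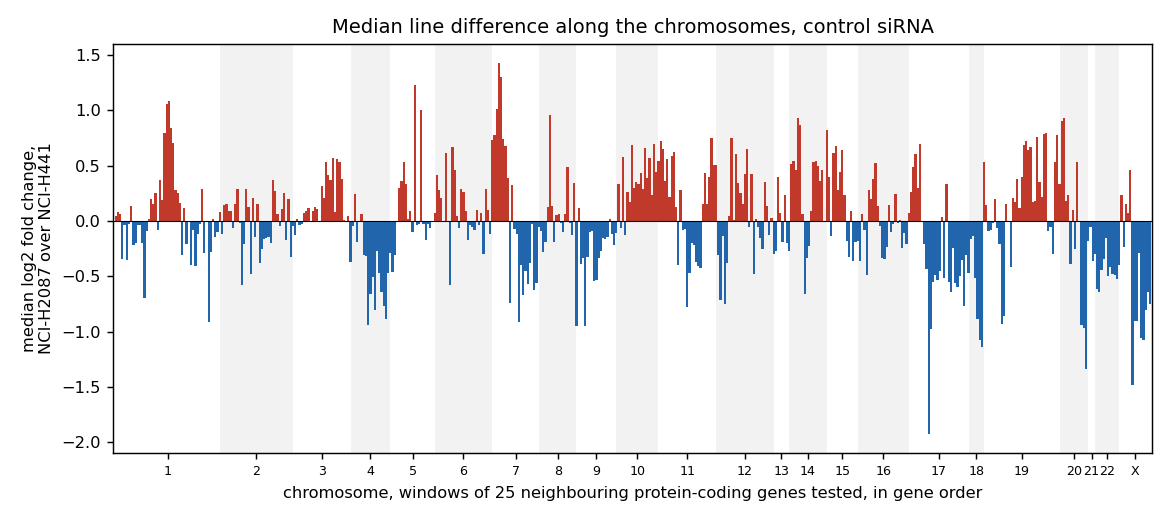
Median log2 fold change of NCI-H2087 over NCI-H441 in windows of 25 neighbouring protein-coding genes, in gene order along the chromosomes (1 bar per window, 468 windows, red where positive and blue where negative). Neighbouring bars share their sign over long stretches, with the lowest bar on chromosome 17 (−1.93) and the highest on chromosome 7 (1.43).

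Of 29 NRF2 targets, genes of detoxification and redox balance, 14 rose, 4 fell and 11 were not called (median 0.50 log2). The share called was 62.1%, against 42.1% of all genes tested. GCLC, the catalytic subunit of glutathione synthesis, was at 507.7 and 632.3 CPM in NCI-H2087 and 82.0 and 80.2 CPM in NCI-H441 (2.81 ± 0.18, adjusted p = 3.37e-06). AKR1B10, an aldo-keto reductase, was at 210.1 and 161.4 CPM against 1.46 and 0.666 CPM (7.47 ± 0.40), the related AKR1C1 was higher by 6.83 ± 0.25 and AKR1C3 by 4.48 ± 0.23, and the glutathione peroxidase GPX2 by 6.47 ± 0.45. AKR1C genes are close copies of each other and may share reads. NQO1, a quinone reductase and standard NRF2 readout, was at 734.9 and 915.3 CPM against 725.3 and 729.3 CPM and was not called, and the thioredoxin reductase TXNRD1 was lower (−1.22 ± 0.17). In NCI-H2110, AKR1C1 stood at 787.1 CPM, AKR1B10 at 298 CPM and GCLC at 336 CPM.

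Of 23 AHR, retinoid and xenobiotic genes, 15 rose and 4 fell (82.6% called, against 42.1% of all genes tested). The aldehyde dehydrogenases ALDH1A1 and ALDH3A1 were at 60.5 and 63.8 CPM and at 34.3 and 40.9 CPM in NCI-H2087, against 0.300 and 0 CPM and 0.172 and 0 CPM in NCI-H441. CRABP2, which carries retinoic acid to the nucleus, was at 1.65 and 2.00 CPM against 494.1 and 354.3 CPM (−7.85 ± 0.26 log2). The retinol dehydrogenase DHRS9 was lower by 4.78 ± 0.32. Drug transporters rose in 7 of 11 cases, with ABCC2 at 17.6 and 16.2 CPM against 0.730 and 0.888 CPM, and fell in 2 (81.8% called).

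Sterol and fatty acid synthesis genes were higher for 12 of 27 members and lower for 3 (median 0.69 log2). The share called was 55.6%, against 42.1% of all genes tested. SQLE, squalene epoxidase, was at 276.7 and 262.7 CPM in NCI-H2087 and 28.8 and 43.6 CPM in NCI-H441 (2.90 ± 0.26), and FDFT1, squalene synthase, was higher by 2.09 ± 0.19 and IDI1 by 1.97 ± 0.20. Hypoxia and glycolysis genes went the other way, 2 of 26 higher and 11 lower (median −0.66 log2, 50% called). VEGFA, the endothelial growth factor, was at 78.5 and 59.6 CPM against 297.1 and 271.7 CPM (−2.04 ± 0.18). ALDOC (−1.81 ± 0.18) lies in the chromosome 17 window just described. The glucose transporter SLC2A3 (3.53 ± 0.27) and CA12 were the 2 that rose.

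Interferon-stimulated genes differed in both directions, 16 of 39 higher and 7 lower (median 0.47 log2). The share called was 59%, against 42.1% of all genes tested. IFIT1 was at 76.7 and 55.0 CPM in NCI-H2087 and 12.1 and 11.4 CPM in NCI-H441 (2.49 ± 0.24), and HERC5, an ISG15 ligase, was higher by 4.60 ± 0.29. MX1, an antiviral GTPase, was higher by 3.18 ± 0.35 whereas its paralog MX2 was lower by 2.02 ± 0.30.

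NF-kB and cytokine genes were lower in 13 of 24 cases and higher in 3 (median −0.99 log2). The share called was 66.7%, against 42.1% of all genes tested. ICAM1, a leukocyte adhesion receptor, was at 82.4 and 88.9 CPM in NCI-H2087 and 294.9 and 350.5 CPM in NCI-H441 (−1.91 ± 0.19). CXCL5, a neutrophil chemokine, was an exception at 18.9 and 20.5 CPM against 3 counts, a ratio of 333 (114 to 1617), and IL6 was higher by 1.85 ± 0.30. MHC class II genes, which present antigen from outside the cell, were lower in 5 of 7 cases (71.4% called). CD74, the invariant chain, was at 0.258 and 0.226 CPM against 31.6 and 66.5 CPM (−7.65 ± 0.73). Members near 0 in NCI-H2087 could pass the filter through NCI-H441 alone, so the class II count describes these genes and is no support. In class I, B2M, the shared light chain, was higher (0.70 ± 0.17) and HLA-B lower (−2.21 ± 0.33). The B2M call was lost without any of the 4 libraries, with differences from 0.69 to 0.71 log2. CD274, which encodes PD-L1, was at 34.5 and 38.3 CPM against 97.2 and 142.8 CPM (−1.72 ± 0.20).

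Mitosis genes had the lowest share called of the 46 lists. Of 27 mitosis genes 2 fell and 0 rose, a share of 7.41% against 42.1% of all genes tested. MKI67, a proliferation marker, was at 576.9 and 387.8 CPM in NCI-H2087 and 629.9 and 432.4 CPM in NCI-H441, with overlapping groups. Of 25 DNA replication genes 8 fell and 0 rose (32% called), with the helicase subunit MCM7 at 108.5 and 89.5 CPM against 223.9 and 218.1 CPM (−1.16 ± 0.24). Ribosomal protein genes were higher for 6 of 34 members and lower for 7 (38.2% called), and proteasome genes rose in 3 of 26 and fell in 8 (42.3%). Both shares were near that of all genes tested. PSMA7 (−1.996 ± 0.194) and PSMA5 (1.08 ± 0.15) lie in windows of chromosomes 20 and 1 that were low and high as a whole. The list of genes activated by wild-type p53 held 29, of which 4 were higher and 9 lower (median −0.30 log2). That is 44.8% called, near the 42.1% of all genes tested. CDKN1A, the cell cycle inhibitor p21, was at 20.2 and 19.8 CPM in NCI-H2087 and 81.8 and 69.1 CPM in NCI-H441 (−1.92 ± 0.18).

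Developmental and germ-line genes also differed. Of 14 oncofetal and imprinted genes 7 rose and 2 fell (64.3% called, against 42.1% of all genes tested). IGF2BP3, a fetal RNA-binding protein, was at 282.5 and 292.3 CPM in NCI-H2087 and 13.4 and 10.2 CPM in NCI-H441 (4.61 ± 0.22 log2), and PEG10, an imprinted retrotransposon-derived gene, was at 3381 and 3033 CPM against 898 and 984.4 CPM (1.77 ± 0.20). BRDT, a testis bromodomain protein, was at 55.4 and 54.8 CPM against 0.258 and 0 CPM, while DDX43, a testis helicase, had 1 count in NCI-H2087 and 1003 in NCI-H441, a ratio of 915 (164 to 36176) in favour of NCI-H441. UCHL1, a ubiquitin hydrolase of neurons, was at 32.7 and 40.1 CPM in NCI-H2087 against 3 counts in NCI-H441, whereas the neuroendocrine markers CHGA and NEUROD1 had 0 counts in all 4 libraries.

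**Figure D4:**
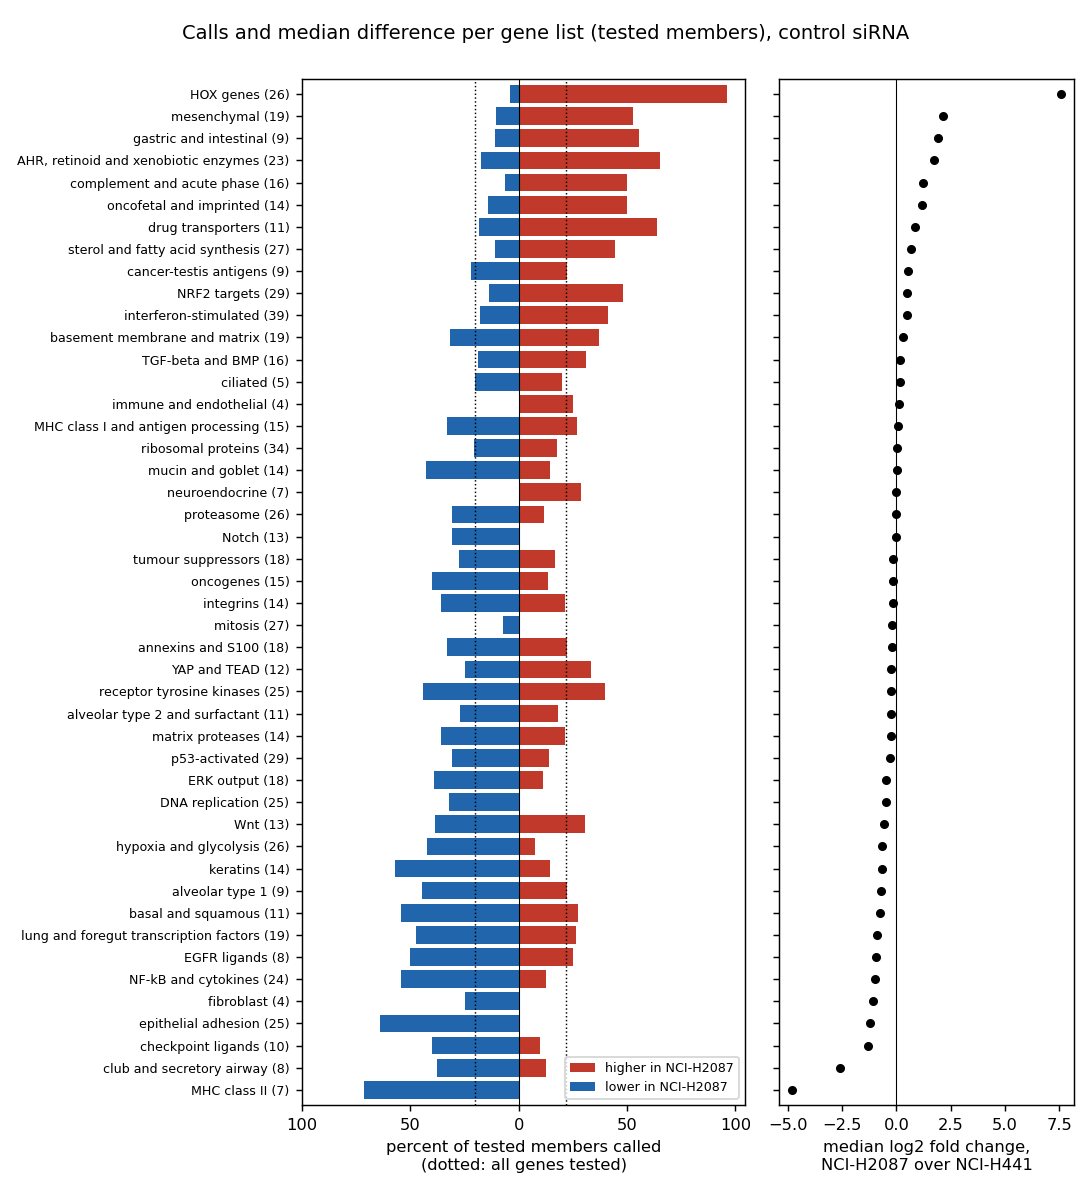
Percent of tested members called higher (red, to the right) or lower (blue, to the left) in NCI-H2087, and the median log2 fold change, for 46 gene lists ordered by median, with the number tested in brackets. Dotted lines mark the shares over all genes tested, 22% higher and 20.1% lower. HOX genes lie at the top and MHC class II genes at the bottom.

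The remaining lists are given by their counts, beside 42.1% called over all genes tested (22% higher and 20.1% lower). Some shares called were near or below that. They were 44.4% for tumour suppressors and cancer-testis genes, 40% for ciliated cell genes and 30.8% for Notch genes. Neuroendocrine genes were called in 28.6%, and fibroblast genes and immune and endothelial genes in 25% each. Gastric and intestinal genes were higher for 5 of 9 members and lower for 1, with CEACAM6 at 2007 and 1841 CPM in NCI-H2087 against 407.1 and 380.4 CPM in NCI-H441. Complement and acute phase genes rose in 8 of 16 and fell in 1, basal and squamous genes rose in 3 of 11 and fell in 6, alveolar type 1 genes rose in 2 of 9 and fell in 4, and club and airway secretory genes rose in 1 of 8 and fell in 3. EGFR ligands rose in 2 of 8 and fell in 4, checkpoint ligands rose in 1 of 10 and fell in 4, Notch genes rose in 0 of 13 and fell in 4, Wnt genes rose in 4 of 13 and fell in 5, TGF-beta and BMP genes rose in 5 of 16 and fell in 3, and YAP and TEAD genes rose in 4 of 12 and fell in 3. Annexin and S100 genes rose in 4 of 18 and fell in 6, class I antigen genes rose in 4 of 15 and fell in 5, oncogenes rose in 2 of 15 and fell in 6, and tumour suppressors rose in 3 of 18 and fell in 5. Cancer-testis genes rose in 2 of 9 and fell in 2, ciliated cell genes rose in 1 of 5 and fell in 1, neuroendocrine genes rose in 2 of 7 and fell in 0, fibroblast genes rose in 0 of 4 and fell in 1, and immune and endothelial genes rose in 1 of 4 and fell in 0.

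The p53 siRNA libraries of the lines gave a second reading of the line difference from other libraries, although the fit shares its estimate of the spread between them. There 7900 genes (43.9%) were called between NCI-H2087 and NCI-H441, and 5594 were called in both arms, which is 73.9% of the control calls and 70.8% of the p53 siRNA calls. Of the 5230 control calls of 2-fold or more, 5058 had the same sign under p53 siRNA and 172 the opposite one. Across the 17978 genes the line differences in the arms correlated with r = 0.873 (Spearman 0.790), and genes are not independent replicates. The arms may not be independent readings either, since a replicate difference could carry over within a line. SFTPA1 in NCI-H441 was at 1081 and 392.8 CPM under control siRNA and 1131 and 414.6 CPM under p53 siRNA. In NCI-H2087 it was at 583.7 and 640.9 CPM and then 114.8 and 23.83 CPM, with the order of replicates reversed. The main fit had no replicate block and did not model such a pairing. A test of the change in the line difference called 74 genes (0.412%), with 2380 at an unadjusted p below 0.05. Among them PHLDA1, an ERK-induced gene, was lower in NCI-H2087 by 2.15 ± 0.18 log2 under control siRNA and higher by 0.78 ± 0.18 under p53 siRNA, a change of 2.93 ± 0.25 (adjusted p = 0.0102). SFTPB, not called under control siRNA, was lower by 4.22 ± 0.41 under p53 siRNA.

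**Figure D5:**
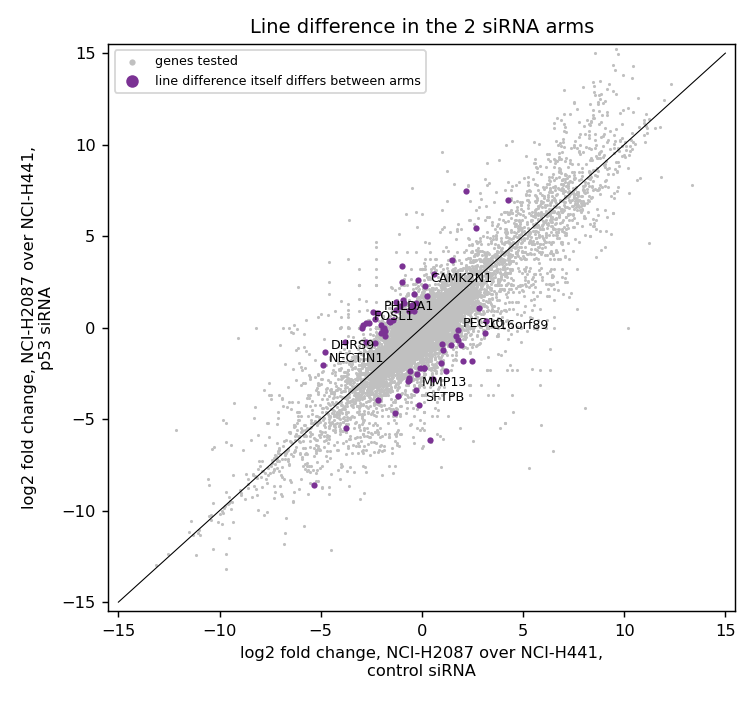
Log2 fold change of NCI-H2087 over NCI-H441 under p53 siRNA (vertical axis) against that under control siRNA (horizontal axis), 1 point per gene tested, with the 74 genes whose line difference changed in purple. Most points follow the diagonal of equal differences (r = 0.873), and the purple points lie off it on either side.

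The control level of NCI-H2110 was nearer to either line for similar numbers of genes. Of the 2823 genes higher in NCI-H2087 by 2-fold or more, its control level was nearer to NCI-H2087 for 1304 and nearer to NCI-H441 for 1519. Of the 2407 lower by as much, it was nearer to NCI-H2087 for 1264 and nearer to NCI-H441 for 1143. It lay between the lines for 2249 of these genes, below both for 1574 and above both for 1407. Its single library has no replicate, so the error of these counts is unknown.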

How the data were processed

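Per the labels' protocols, RNA came from an RNeasy Plus extraction and was prepared using Lexogen's mRNA kit. The authors deposited whole-number counts per Ensembl gene for 10 libraries. Bowtie2, RSEM 1.2.12 and build hg19 are named, per the submitters' processing notes, without their roles; the strand setting and whether the counts were rounded are not given in the sources used here. The deposited counts were tested with edgeR 4.0.16 in R 4.3.3 (TMM scaling, filterByExpr, 1 mean per group over all 10 libraries, 4 residual degrees of freedom, quasi-likelihood F test). Standard errors were derived from the log2 fold change and F, and with few counts in 1 line they can understate counting error. Alternatives used limma 3.58.1 and DESeq2 1.42.0. Names and gene order came from GENCODE and RefSeq tables. The naming rule took the 12 largest differences of at least 20 CPM per direction, among called genes whose groups did not overlap. It also took, per list, up to 4 called members by smallest p and up to 2 uncalled ones by level. Added to these were the 8 highest genes detected in 1 line and the strongest changes between siRNA arms. Other named genes, among them CDH1, EGFR, MET, ERBB2, GCLC, NKX2-1, ZEB1, TGFBI, MX1, MX2, SPP1 and CXCR3, with the chromosome neighbours and window members, were chosen after their values were seen. The members and lists were chosen with earlier results of these data known. Some items are not reported here. The script was tested on simulated data. The main test did not pair the lines by replicate number. Intervals and floors cover counting error only.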

Additional observations from a re-analysis of the deposited data

Results flagged for a closer look

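Of the 74 genes whose line difference changed, 8 are among the genes named above. Their difference changed between the p53 siRNA and the control siRNA libraries, in edgeR's quasi-likelihood test of that change. PHLDA1 changed by 2.93 log2 (adjusted p = 0.0102), FOSL1 by 2.86, DHRS9 by 3.42, KRT19 by 1.98 and CDKN1A by 1.86, each being lower in NCI-H2087 under control siRNA. SFTPB changed by −4.09 (adjusted p = 0.0257), MX1 by −2.83 and PEG10 by −1.92.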

How the results depend on the processing

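The 7568 calls became 7565 with RLE factors, 7540 with library totals, 8077 with no filter, 6794 with a stricter filter, 8729 from the 4 libraries alone, 7614 without NCI-H2110, 6979 by DESeq2 and 7847 by limma-voom. A replicate block across lines gave 8484 calls, of which 7559 were shared. Replicate 1 minus 2 correlated between the lines at r = −0.11 over 9332 genes under control siRNA and 0.20 under p53 siRNA. With 1 such contrast per line and arm, these values cannot settle whether the numbers pair the lines. The crossed replicate block, chosen after seeing the data, gave 7510. A test against 2-fold called 3043, 1726 higher and 1317 lower. Leaving out 1 library gave 4693 to 5381 calls (2522 to 2964 higher, 2171 to 2660 lower, 4051 to 4574 at 2-fold), lowest without NCI-H2087 replicate 2. At 1 CPM, 156 genes were detected in NCI-H2087 alone and 51 in NCI-H441 alone; allowing 1 count per library of the other line, 65 and 26. Uncalled genes near 0 turned sign. With library totals, OCLN was 0.0209, and the list medians were 0.0077 for Notch and 0.0311 for proteasome genes. With the stricter filter OCLN was 0.0164. SFTPA1 was 0.068 under the replicate block. Leaving out 1 library gave RB1 −0.0969 to 0.2471, SFTPB −0.6395 to 0.2416, MKI67 −0.4604 to 0.1376, SFTPA1 −0.797 to 0.6205, FOXA1 −0.0931 to 0.4968 and OCLN −0.0631 to 0.0346 log2. The omission of any of the 4 libraries ended the call of B2M, that of 3 ended those of CBX3, NKX2-1 and SFTPA2, and that of 2 ended those of CD68 and GRHL2. The cause of these shifts was not tested.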

Other observations

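Genes of at least 20 CPM in both p53 siRNA libraries of 1 line and at most 3 summed counts in those of the other were read in the control libraries. Of 52 such NCI-H2087 genes, 50 were above 0 in NCI-H441 replicate 1, with 226 counts in all, 0.374% of their NCI-H2087 level. In NCI-H441 replicate 2, 16 of the 52 were above 0, with 35 counts, 0.0499% of that level. Of 11 such NCI-H441 genes, 6 were above 0 in NCI-H2087 replicate 1 and 9 in replicate 2, at 0.676% and 0.684% of their NCI-H441 level. A single gene held 30 of the 57 counts in replicate 1, and CXCL17 held 54 of the 79 in replicate 2. A source of these counts was not tested, and counts of 1 to 13 in NCI-H441 replicate 1 bear on the genes described as near 0 in that line.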
